A study of Mus musculus with 6 samples.

Results

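Ketone body metabolism in the mouse heart was followed through 4 genes, Bdh1, Oxct1, Acat1 and Slc16a1, taken by their symbols from a table of 25361 genes. All 4 were listed and all 4 had enough counts to be tested. Hearts came from male C57BL/6N mice of wild-type genotype, 3 untreated controls and 3 mice given ISO+L-NAME for 6 weeks. The age is given as 12 weeks, and whether that was at the start or at collection is not stated. The combination is used as a model of HFpEF, heart failure with preserved ejection fraction, and L-NAME inhibits nitric oxide synthase. The labels give no dose, route or measure of heart function, and each library is 1 heart sample of mixed cells rather than 1 cell type.

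The heart burns ketone bodies that the liver makes from fatty acids and releases into the blood. Monocarboxylate transporters in the plasma membrane let β-hydroxybutyrate and acetoacetate into the cell, and 3 mitochondrial enzymes then act in turn. Bdh1 encodes the dehydrogenase that interconverts β-hydroxybutyrate and acetoacetate. Oxct1 encodes the transferase that activates acetoacetate with coenzyme A taken from succinyl-CoA, a step the adult liver lacks. Acat1 encodes the thiolase that splits acetoacetyl-CoA into acetyl-CoA for the tricarboxylic acid cycle, and the same enzyme works in isoleucine breakdown. Slc16a1 encodes the transporter MCT1, which carries lactate and pyruvate as well as ketone bodies.

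Of the 4 genes, Bdh1 rose in treated hearts, by 2.60-fold, and the other 3 did not pass the test. Oxct1 and Acat1, the abundant enzymes of the route, lay at or below their control level, and Slc16a1 lay above it without passing. There were 7.37 ± 1.11 Bdh1 counts per 100 Oxct1 counts in controls, against 20.4 ± 3.81 after treatment (SD, n = 3 hearts each), without overlap but at an exact permutation p of 0.1, the smallest that 3 hearts against 3 can give. That 1 of 4 genes was called (25.0%) stands beside 6.10% of all 8531 tested genes called in either direction, and beside 3.41% called higher.

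The genes lie on 4 chromosomes, and on GRCm39, the build of the deposited table, none of them overlaps another listed gene. Bdh1 (ENSMUSG00000046598) spans chr16:31241098-31277719 on the plus strand and Oxct1 (ENSMUSG00000022186) chr15:4055865-4184826, also plus. Acat1 (ENSMUSG00000032047) spans chr9:53491822-53521682 on the minus strand and Slc16a1 (ENSMUSG00000032902) chr3:104545984-104565778 on the plus strand. All are protein-coding genes. The libraries were read from the 3′ end of messages, so the end of each transcript is what was counted. In the GENCODE M21 annotation, which is on the older build GRCm38, the coding transcripts of Bdh1 have 4 different 3′ ends spread over 2151 bases and those of Oxct1 have 2 over 1381 bases, while Acat1 and Slc16a1 have 1 each. No 50-base word from the last 500 bases of these coding transcripts occurs in a transcript of any other gene, with 1628 words searched for Bdh1, 902 for Oxct1 and 451 each for Acat1 and Slc16a1.

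Sequences around the start sites are shown for the gene called higher, for the transporter and for the abundant transferase. Whether these sequences bear on the levels was not tested. They are RefSeq promoters on GRCm38.p6 from 250 bases before to 50 after the start, 5′ to 3′ on the strand of the gene, and 3 of the 4 genes were found in that table, Bdh1 with 2 start sites. Capitals mark matches, on either strand, to any of 8 motifs searched.
Bdh1 upstream start, chr16:31422047-31422346: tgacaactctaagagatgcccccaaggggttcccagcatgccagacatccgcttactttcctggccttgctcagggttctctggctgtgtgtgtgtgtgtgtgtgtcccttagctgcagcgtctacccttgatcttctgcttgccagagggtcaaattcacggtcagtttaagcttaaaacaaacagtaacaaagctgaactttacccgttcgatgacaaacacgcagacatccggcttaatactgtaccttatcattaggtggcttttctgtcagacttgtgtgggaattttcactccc
Bdh1 downstream start, chr16:31428503-31428802: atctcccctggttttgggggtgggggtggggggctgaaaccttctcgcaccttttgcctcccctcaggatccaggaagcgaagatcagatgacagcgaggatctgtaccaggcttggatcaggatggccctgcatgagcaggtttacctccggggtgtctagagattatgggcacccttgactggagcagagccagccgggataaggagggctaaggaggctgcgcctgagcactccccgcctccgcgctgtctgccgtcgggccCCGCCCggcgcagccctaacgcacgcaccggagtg
Slc16a1, chr3:104638414-104638713: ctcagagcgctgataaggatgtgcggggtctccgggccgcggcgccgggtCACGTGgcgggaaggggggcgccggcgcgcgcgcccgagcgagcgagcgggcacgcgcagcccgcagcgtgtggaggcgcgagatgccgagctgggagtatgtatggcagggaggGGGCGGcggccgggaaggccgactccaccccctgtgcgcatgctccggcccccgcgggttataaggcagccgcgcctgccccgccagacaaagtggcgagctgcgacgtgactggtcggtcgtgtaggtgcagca
Oxct1, chr15:4026178-4026477: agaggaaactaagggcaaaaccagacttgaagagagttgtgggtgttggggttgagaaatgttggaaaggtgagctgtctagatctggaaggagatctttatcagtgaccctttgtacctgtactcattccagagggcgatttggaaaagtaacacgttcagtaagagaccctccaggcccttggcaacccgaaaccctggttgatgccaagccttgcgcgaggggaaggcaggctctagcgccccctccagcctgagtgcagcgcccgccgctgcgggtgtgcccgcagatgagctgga
The motifs were the estrogen-related receptor element TCAAGGTCA, the shorter nuclear receptor site AGGTCA that it contains, the E-box CACGTG, the D-box TTATGTAA, the GC box GGGCGG, the CCAAT box, the cAMP response element TGACGTCA and the shorter element TGACG that it contains. The upstream Bdh1 window and the Oxct1 window held none of them. The downstream Bdh1 window held 1 GC box on the opposite strand, and the Slc16a1 window held 1 GC box and 1 E-box. Among 32851 promoters of the same length, 35.7% held a GC box and 7.15% an E-box, so a GC box is common, and a match describes letters rather than a site in use. The windows differ in composition, with 48.3% G and C in the upstream Bdh1 window, 63.7% in the downstream one, 55.3% in that of Oxct1 and 73.7% in that of Slc16a1, against a median of 52.7% over all promoters. The deposited counts do not tell which Bdh1 start site was used.

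Each library held between 2217974 and 2637364 counts. Levels are given as CPM, counts relative to the size of the library, scaled by TMM, a factor per library that sets the bulk of genes equal. Because the kit reads the 3′ end whatever the length of the message, counts of different genes were compared without dividing by length. Each change is a log2 ratio, treated over control, ± its standard error (SE). A gene is called when its p-value from the edgeR quasi-likelihood test, adjusted by the Benjamini-Hochberg method over all 8531 genes, is below 0.05. In bulk hearts, fewer cells of a type and less RNA per cell cannot be told apart.

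The first enzyme of the route was the gene that was called. Controls held 141, 142 and 99 Bdh1 counts, and treated hearts 414, 382 and 485. In CPM the controls stood at 64.3, 71.1 and 47.7 and the treated hearts at 138, 150 and 188. All treated hearts lay above all controls, with the lowest treated heart at 1.94 times the highest control, and treated heart 3 stood highest. The log2 change was 1.38 ± 0.15 (edgeR adjusted p = 7.78e-06), with a 95% interval from 2.09-fold to 3.22-fold. Bdh1 ranked 10 of 8531 genes by p-value and lay at percentile 99.0 of the log2 changes. With each library left out in turn the log2 change ran from 1.22 to 1.49 and the call was kept every time.

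**Figure D1:**
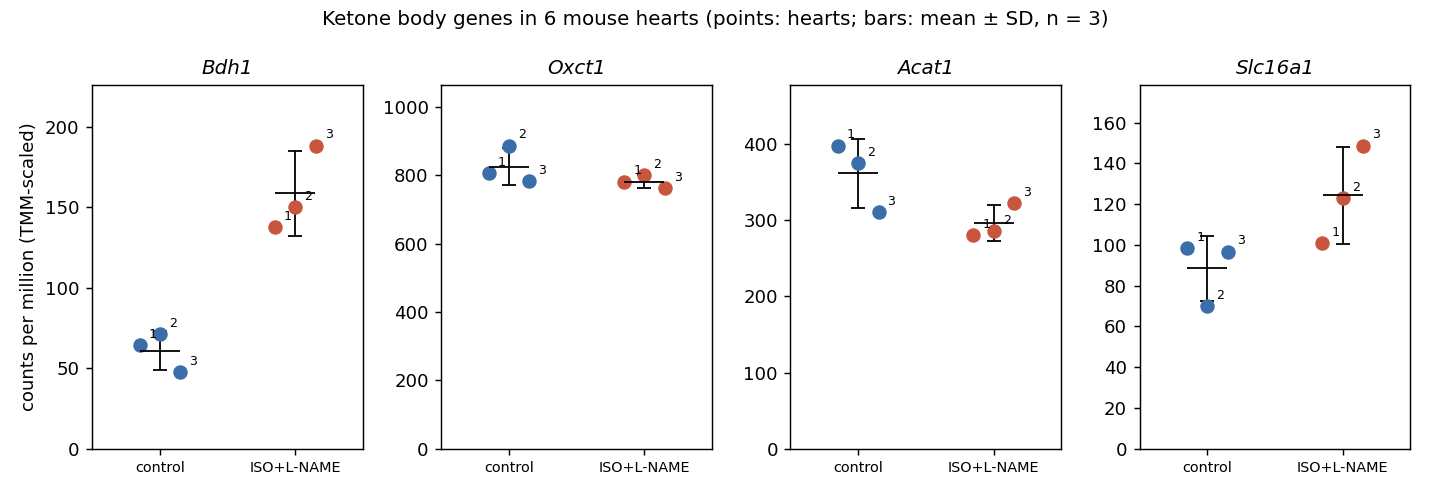
TMM-scaled CPM of Bdh1, Oxct1, Acat1 and Slc16a1 (vertical axes, each from 0) in 3 control and 3 ISO+L-NAME hearts. Points are hearts numbered by replicate, and bars are mean ± SD. Bdh1 separates the groups, at 47.7 to 71.1 against 138 to 188, while Oxct1 and Acat1 overlap.

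Oxct1, the transferase that commits acetoacetate to oxidation, was the most abundant of the 4. Controls held 1764, 1771 and 1627 counts, treated hearts 2350, 2032 and 1961. After scaling these became 805, 886 and 783 CPM and 781, 799 and 761 CPM. The groups overlapped, and the treated hearts lay within a narrow band, with a coefficient of variation of 2.40% against 6.59% in controls. The log2 difference was -0.08 ± 0.10 (edgeR adjusted p = 0.742). Its 95% interval ran from 0.824-fold to 1.09-fold, so a change of the size seen in Bdh1 lies outside it. The sign of the Oxct1 difference depended on scaling: it was 0.23 with total counts alone (edgeR adjusted p = 0.0853) and 0.073 with cardiomyocyte marker counts.

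Acat1, the last enzyme of the route, lay lower in treated hearts without passing. Controls had 872, 750 and 646 counts, or 398, 375 and 311 CPM. Treated hearts had 843, 726 and 831 counts, or 280, 285 and 323 CPM. Control 3 fell inside the treated range, so the groups overlapped. The log2 difference was -0.29 ± 0.11 (edgeR adjusted p = 0.156, unadjusted p = 0.0179), an interval from 0.697-fold to 0.963-fold before any adjustment for the number of genes. Control 3 decided the call: without it the log2 difference was -0.39 (edgeR adjusted p = 0.0344), and over the other alternatives the adjusted p ran from 0.129 to 0.918. With total counts alone the difference was 0.019, on the other side of zero.

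Slc16a1, the transporter, lay higher in treated hearts but missed the threshold. Its counts were 216, 140 and 201 without treatment, against 304, 313 and 383 with it. Scaled, these were 98.5, 70.1 and 96.7 CPM against 101, 123 and 149 CPM. The groups did not overlap, but treated heart 1 stood close to controls 1 and 3. Groups that do not overlap were found for 2 of the 4 genes, Bdh1 and Slc16a1, and for 22.7% of all tested genes. The log2 difference was 0.48 ± 0.15, or 1.40-fold with an interval from 1.13-fold to 1.74-fold (edgeR adjusted p = 0.0597, unadjusted p = 0.00395). Of 18 alternative settings, 7 called it higher, among them total counts alone at 0.78 (edgeR adjusted p = 0.00220) and the fit without ISO+L-NAME 1 at 0.62 (0.0212). In the other 5 fits without 1 library the adjusted p ran from 0.0578 to 0.283. Total counts alone called 1407 of all 8531 tested genes higher, at a median log2 change of 0.30.

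**Figure D2:**
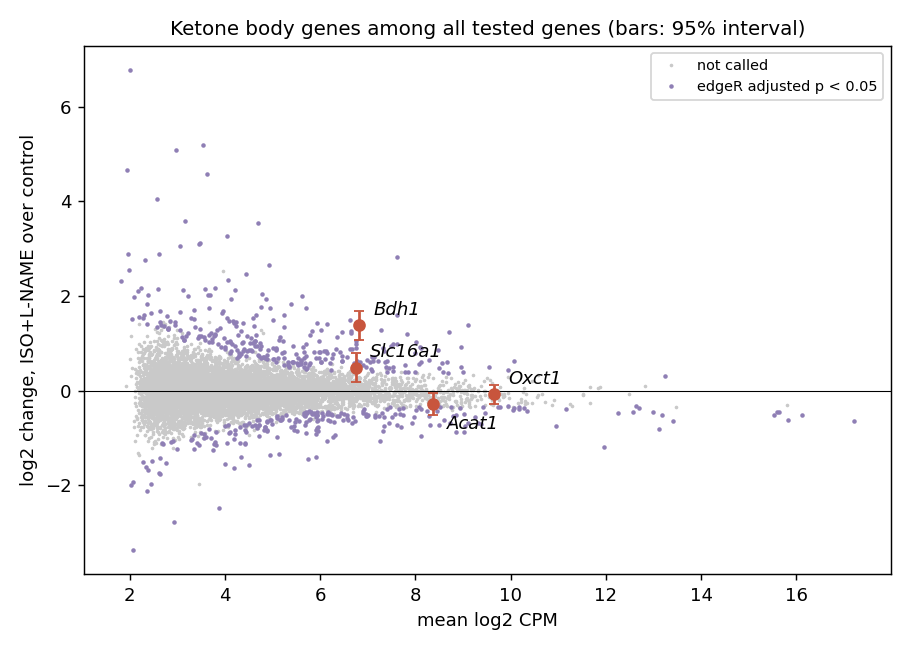
The log2 change of ISO+L-NAME over control (vertical) against mean log2 CPM (horizontal) for 8531 tested genes, grey where not called and purple where the edgeR adjusted p is below 0.05. The 4 ketone body genes are red with 95% intervals: Bdh1 at 1.38 stands above the bulk of genes of its abundance, and Oxct1 at -0.08 lies within it.

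Counts of these genes can be divided by one another within a library, which removes the scaling between libraries altogether. For each of 6 pairs the log2 ratio was put to an exact permutation test, two-sided. With 3 hearts a side the p cannot fall below 0.1, or below 0.12 after Benjamini-Hochberg adjustment over the 6 pairs when 5 of them reach it. Bdh1 per Oxct1 was 0.0799, 0.0802 and 0.0609 in controls, against 0.176, 0.188 and 0.247 after treatment. The log2 ratio of every treated heart lay above every control, by 1.46 on average (exact permutation p = 0.1, adjusted 0.12). Bdh1 per Acat1 was 0.162, 0.189 and 0.153 in controls, against 0.491, 0.526 and 0.584 after treatment, a mean log2 difference of 1.67 (exact permutation p = 0.1, adjusted 0.12). This was the widest shift of the 6 pairs, 3.18-fold.

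Bdh1 per Slc16a1 was 0.653, 1.01 and 0.492 in controls, so Bdh1 lay below Slc16a1 in controls 1 and 3 and about level with it in control 2. In every treated heart Bdh1 lay above Slc16a1, at ratios of 1.36, 1.22 and 1.27. The mean log2 difference was 0.90 (exact permutation p = 0.1, adjusted 0.12), and it moved to 0.66 without control 3 and 1.18 without control 2. For the later enzymes, Oxct1 per Acat1 was 2.02, 2.36 and 2.52 in controls, against 2.79, 2.80 and 2.36 after treatment, with overlapping groups (log2 difference 0.20, exact permutation p = 0.3, adjusted 0.3). Without control 1 that difference was 0.11.

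Against the transporter, both later enzymes were lower in every treated heart. Oxct1 per Slc16a1 was 8.17, 12.7 and 8.10 in controls, against 7.73, 6.49 and 5.12 after treatment, a log2 difference of -0.57 (exact permutation p = 0.1, adjusted 0.12). It was -0.35 without control 2, the heart with the fewest Slc16a1 counts. Acat1 per Slc16a1 was 4.04, 5.36 and 3.21 against 2.77, 2.32 and 2.17, a log2 difference of -0.77 (exact permutation p = 0.1, adjusted 0.12). The groups did not overlap in either ratio.

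**Figure D3:**
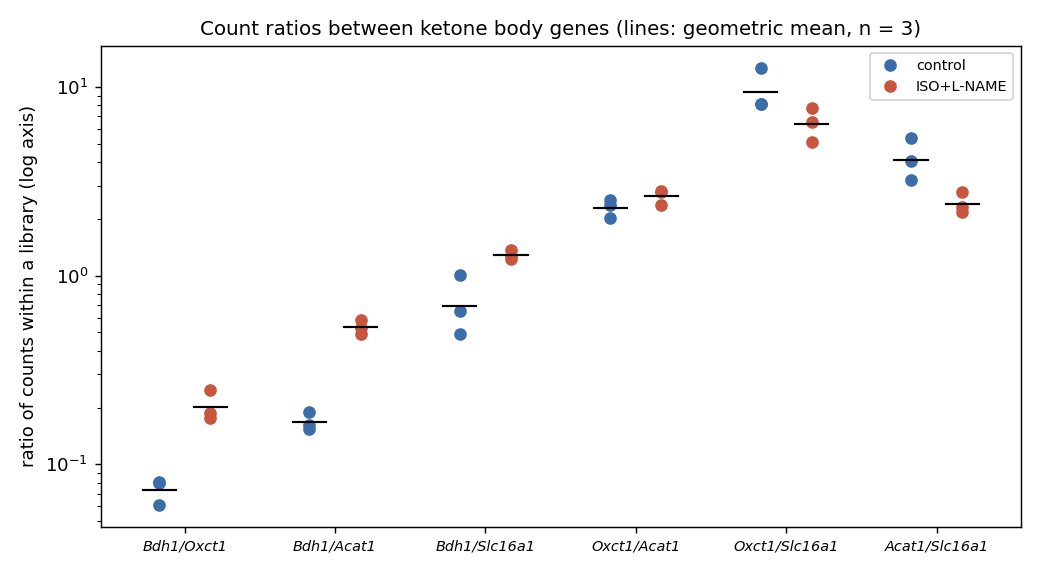
Ratio of the counts of 2 genes within each library (vertical, log axis) for the 6 pairs of ketone body genes, controls blue and ISO+L-NAME red, with lines at the geometric mean of 3 hearts. The 3 ratios with Bdh1 on top are higher in every treated heart, and Oxct1/Acat1 overlaps.

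In terms of the pool the 4 genes form together, Bdh1 made up 4.54% ± 0.627 of their summed counts in controls, against 11.6% ± 1.42 after treatment (SD, n = 3 hearts each). Because shares of a pool are bound together, that rise by itself lowers the other shares. Oxct1 remained the largest component, at 61.8% ± 2.47 and 57.5% ± 3.46. Acat1 held 27.0% ± 2.02 and 21.8% ± 0.859, and Slc16a1 6.67% ± 1.48 and 9.10% ± 1.35. The order of levels in controls was thus Oxct1, Acat1 and then Slc16a1 and Bdh1, whose CPM ranges overlapped. In treated hearts Bdh1 stood above Slc16a1 in each library, and Oxct1 and Acat1 kept the first and second place.

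The wider ketone pathway was given by a list of 14 genes that adds synthesis, the cytosolic enzymes and further transporters to the 4. Of these, 11 had a count and 6 had enough to be tested: 1 was higher (Bdh1), 0 were lower and 5 did not pass. Their median log2 change was -0.10, beside -0.0075 for all tested genes. Slc16a6, for a transporter known from zebrafish to export ketone bodies from liver, was tested beside the 4 and differed by -0.11 ± 0.20 (edgeR adjusted p = 0.850).

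Other genes of the list were scarce in these hearts. Bdh2, the cytosolic dehydrogenase, had 0 and 3 counts. Acat2, the cytosolic thiolase, had 22 and 24, and Aacs, the cytosolic acetoacetyl-CoA synthetase, had 9 and 5. The testis forms of the transferase, Oxct2a and Oxct2b, had no count in any library, which over 14379479 counts allows up to 0.209 CPM each, counting error only.

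Among 20 genes of monocarboxylate and pyruvate transport, 16 had a count and 7 were tested, of which 0 were called in either direction by edgeR at the adjusted threshold. At an unadjusted p below 0.05 there were 2 of the 7, and DESeq2 called 0. The median log2 change was -0.04. Of all 8531 tested genes, the one at rank 1510 by p-value still had an unadjusted edgeR p of 0.0475. Counts at that level, here and below, are thus description and not a result about the lists. After Slc16a1, the next of the Slc16 family by level was Slc16a6, with means of 17.6 and 16.3 CPM. Slc16a7, the high-affinity transporter MCT2, had 16 and 14 counts, and Slc16a3, the lactate exporter MCT4, had 5 and 13. Bsg encodes basigin, the chaperone that brings MCT1 to the membrane, and went the other way from Slc16a1 at 372, 417 and 387 CPM in controls, against 324, 372 and 275 after treatment. Its log2 difference was -0.28 ± 0.11 and did not pass (edgeR adjusted p = 0.188). Mpc1 and Mpc2, the subunits of the mitochondrial pyruvate carrier, differed by -0.01 ± 0.12 and -0.04 ± 0.12 (edgeR adjusted p = 0.976 and 0.920).

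**Figure D4:**
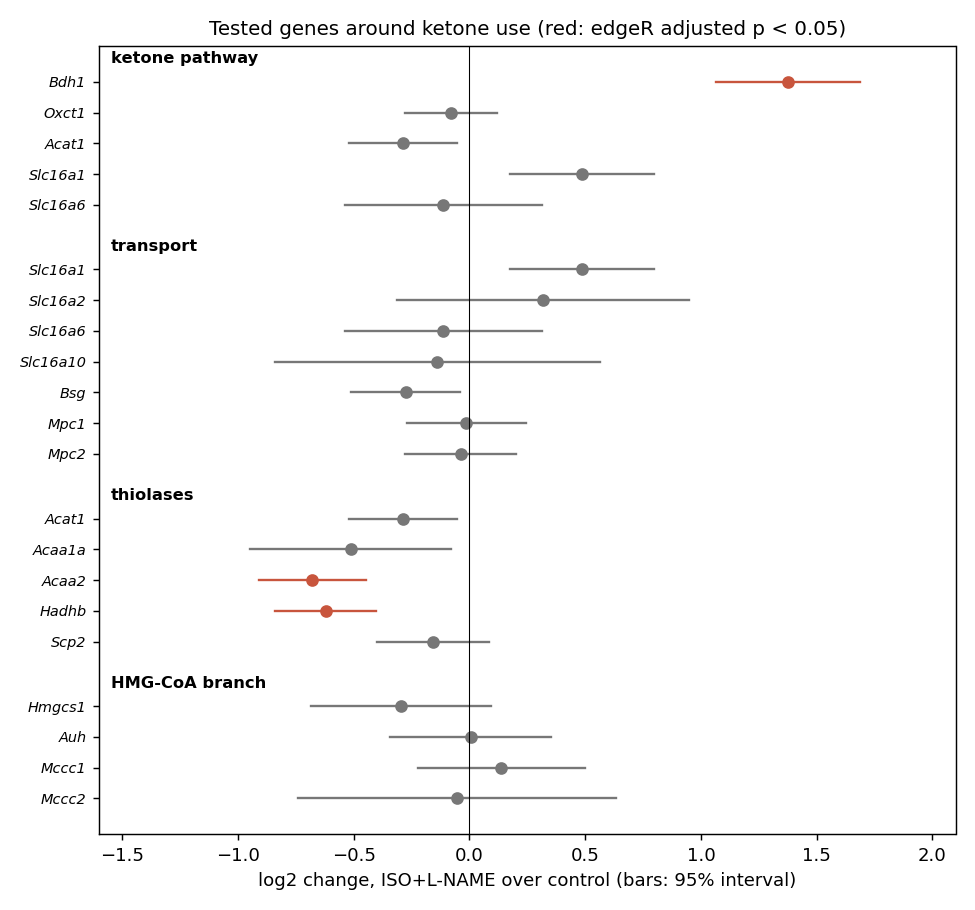
The log2 change of ISO+L-NAME over control with 95% intervals (horizontal) for the tested genes reported here of 4 lists around ketone use, red where the edgeR adjusted p is below 0.05. Bdh1 at 1.38 lies right of zero, and Acaa2 at -0.68 and Hadhb at -0.62 lie left of it.

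Thiolases related to Acat1 were set beside it. Of 8 listed, 5 were tested, 0 were higher, 2 were lower (40.0%, beside 2.68% of all tested genes called lower) and 3 did not pass, with a median of -0.51. Acaa2, the mitochondrial thiolase of fatty acid oxidation, fell from 516, 547 and 492 CPM to 354, 344 and 273 CPM (log2 -0.68 ± 0.11, edgeR adjusted p = 0.000425). Hadhb, the thiolase subunit of the mitochondrial trifunctional protein, fell from 494, 495 and 430 CPM to 320, 321 and 281 CPM (log2 -0.62 ± 0.10, edgeR adjusted p = 0.000600). In both, every treated heart lay below every control, and both kept the call under total counts alone, at -0.37 and -0.31. Acat1 at -0.29 lay between these and Scp2, a peroxisomal thiolase gene, at -0.16 ± 0.12 (edgeR adjusted p = 0.550). The peroxisomal gene Acaa1a differed by -0.51 ± 0.21 (edgeR adjusted p = 0.178), and its groups did not overlap either. Groups did not overlap for 22.7% of all tested genes. Whether Acat1 differed from these genes was not tested.

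In the branch that forms and uses HMG-CoA, 5 of 8 genes were tested and edgeR called 0, with 0 at an unadjusted p below 0.05 and 0 by DESeq2 (median -0.05). Hmgcs1, the cytosolic synthase of sterol formation, differed by -0.30 ± 0.19, and the leucine-breakdown genes Auh, Mccc1 and Mccc2 by 0.0063 ± 0.17, 0.14 ± 0.17 and -0.05 ± 0.33. Their edgeR adjusted p-values ran from 0.452 to 0.991.

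Signalling partners of β-hydroxybutyrate gave 6 tested genes of 10, none called by edgeR or DESeq2, with 1 at an unadjusted p below 0.05 (median 0.15). Hcar2 and Ffar3, receptors on the cell surface that bind short-chain acids, had no count in any library, with the same limit of 0.209 CPM. Of the class I deacetylases that β-hydroxybutyrate can inhibit, Hdac1 differed by 0.15 ± 0.27, Hdac2 by -0.39 ± 0.19 and Hdac3 by -0.14 ± 0.39 (edgeR adjusted p = 0.844, 0.302 and 0.914). The cytosolic deacetylase gene Sirt2 differed by 0.34 ± 0.15 (edgeR adjusted p = 0.224). It was called with total counts alone at 0.65 (0.00592), a scaling that called 1407 of 8531 genes higher at a median of 0.30.

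Of 12 regulators of ketone and fatty acid use, 10 were tested and edgeR and DESeq2 called 0, with 2 at an unadjusted p below 0.05 (median 0.08). Ppara, the receptor that drives fatty acid oxidation and ketone synthesis genes in liver, stood at 33.3, 28.5 and 31.8 CPM in controls, against 33.6, 35.8 and 27.2 after treatment (log2 0.04 ± 0.16, edgeR adjusted p = 0.938). The coactivator gene Ppargc1a differed by 0.17 ± 0.16 and the estrogen-related receptor gene Esrra by 0.32 ± 0.17 (edgeR adjusted p = 0.659 and 0.354). Both were called higher with total counts alone, at 0.48 and 0.63 (0.0423 and 0.0183). That scaling called 1407 of all 8531 tested genes higher and moved their median log2 change to 0.30. Mlycd, malonyl-CoA decarboxylase, came nearest at -0.42 ± 0.14 (edgeR adjusted p = 0.0900). Its groups did not overlap, nor did those of the insulin receptor gene Insr (edgeR adjusted p = 0.560). The same holds for 22.7% of all tested genes. The hormone gene Fgf21 and the liver factor gene Foxa2 had no count in any library.

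The treated hearts also carried other messages in other proportions, and their part in the results above was not tested. Summed over 9 cardiomyocyte markers, the level was 49920 to 50248 CPM in controls and 43808 to 46720 in treated hearts, with 2 markers called higher (Actc1 and Ryr2) and 3 lower (Myh6, Myl2 and Myl3). Of all tested genes 3.41% were called higher and 2.68% lower. The 8 fibroblast markers summed to 534 to 815 CPM and 1035 to 1499 CPM, with 5 higher (Col1a1, Col1a2, Col3a1, Lum and Postn). Dcn, Dpt and Pdgfra were not called. For 8 macrophage markers the sums were 159 to 206 and 330 to 401 CPM, with 5 higher (C1qb, C1qc, Cd68, Mrc1 and Lyz2). Adgre1, Csf1r and C1qa were not called. The 7 endothelial markers summed to 912 to 1093 and 916 to 923 CPM, with 0 of 6 tested called. Of 5 adipocyte markers 4 had no count, and of 5 hepatocyte markers 3 had none and the list stayed at or under 1.57 CPM. Atrial markers other than Nppa were near 0, with 4 and 0 counts in the 2 groups for Myl7, 4 and 6 for Myl4 and 1 and 0 for Sln. Nppa had means of 233 CPM in controls and 235 CPM in treated hearts (log2 0.0072 ± 0.25, edgeR adjusted p = 0.994). The red cell sums overlapped between groups, with 0 of 5 called. The 6 smooth muscle and pericyte markers summed to 383 to 518 and 447 to 490 CPM, with 1 higher (Acta2) and 1 lower (Myh11). The mitochondrial genome's share of counts was 53.6% to 56.7% in controls and 45.5% to 47.8% in treated hearts.

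The 4 genes were also set against the summed cardiomyocyte markers rather than the whole library. Of the 9 markers, 2 were called higher and 3 lower with TMM, so these ratios are not levels per cardiomyocyte. Scaling to the markers called 2 of the 4 genes higher, Bdh1 and Slc16a1, beside 555 of all 8531 tested genes. Bdh1 gave 1.28, 1.42 and 0.954 counts per 1000 marker counts in controls, against 3.09, 3.21 and 4.30 after treatment, without overlap. Slc16a1 gave 1.96, 1.40 and 1.94 against 2.27, 2.63 and 3.40, also without overlap. Oxct1 gave 16.0, 17.8 and 15.7 against 17.5, 17.1 and 17.4, and Acat1 7.92, 7.52 and 6.22 against 6.29, 6.11 and 7.37, both with overlap. With these marker counts as library sizes, Bdh1 changed by 1.53 ± 0.16 (edgeR adjusted p = 5.28e-06) and Slc16a1, not called with TMM, by 0.64 ± 0.16 (0.0138). Oxct1 turned from -0.08 to 0.073 and Acat1 stood at -0.13, neither called. The same scaling moved the median log2 change of all tested genes to 0.15. Relative to that median Slc16a1 stood at 0.49 and Oxct1 at -0.07, as with TMM.

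**Figure D5:**
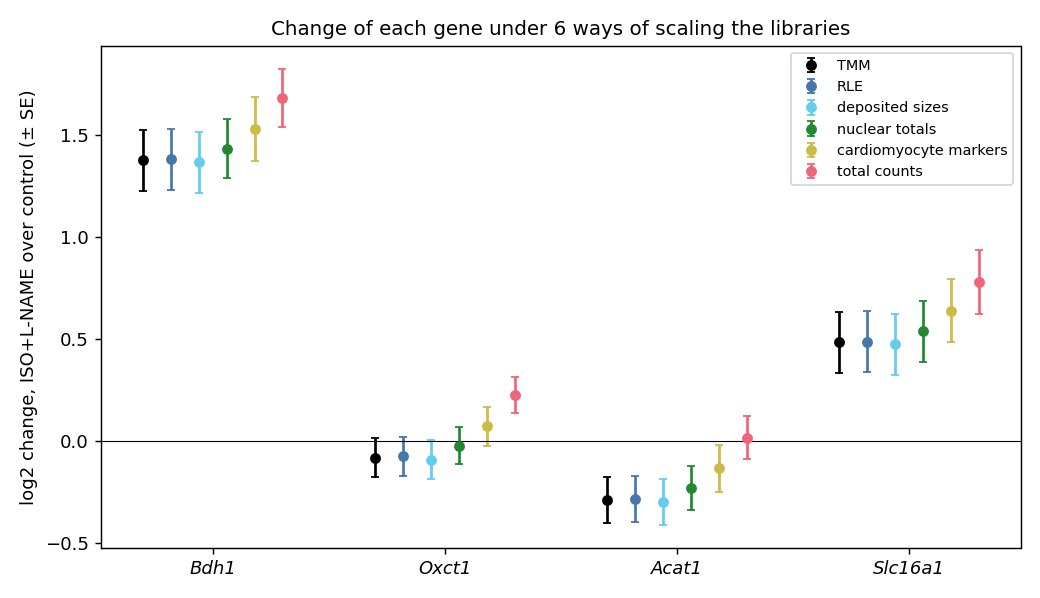
The log2 change of ISO+L-NAME over control ± SE (vertical) of the 4 ketone body genes under 6 scalings of the libraries. Bdh1 runs from 1.37 to 1.68 and Slc16a1 from 0.48 to 0.78, whereas Oxct1 turns positive with cardiomyocyte markers (0.073) and total counts (0.23), and Acat1 does so with total counts (0.019).

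Total counts alone moved the median of all tested genes to 0.30, from -0.0075. Relative to that median the 4 genes stood almost where they did with TMM: Bdh1 at 1.39 and 1.38, Slc16a1 at 0.48 and 0.49, Oxct1 at -0.07 and -0.07 and Acat1 at -0.28 and -0.28. That closeness is arithmetic, because rescaling shifts the genes together.

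Genes whose log2 CPM most resembled each member over the 6 libraries were taken from 7905 tested genes of at least 5 CPM, by Pearson correlation. With 6 libraries in 2 groups, high values are common: 71 genes reached 0.95 with Bdh1, 19 with Oxct1, 30 with Acat1 and 24 with Slc16a1. The nearest to Bdh1 were Rsph3b, Rab3ip and Atmin (r = 0.992, 0.990 and 0.989, n = 6 libraries). Rsph3b differed by 0.53 and Rab3ip by 0.66, both called (edgeR adjusted p = 0.0337 and 0.0197), and Atmin by 0.65, not called (0.155). Their direction follows from how they were chosen. For Oxct1 they were Fgf13, Sec14l1 and Gabpa, for Acat1 Usp19, Gstk1 and Mzt1, and for Slc16a1 Dock1, Tubb5 and Dnttip2, with r from 0.979 to 0.991. None of these 9 was called. Between the members, r was 0.71 for Bdh1 with Slc16a1, 0.56 for Oxct1 with Acat1 and -0.84 for Oxct1 with Slc16a1. It was -0.42 for Bdh1 with Oxct1, -0.53 for Bdh1 with Acat1 and -0.47 for Acat1 with Slc16a1. All these values are over the same 6 libraries and their shared scaling.

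On the chromosome, the nearest listed neighbours of Bdh1 were Apod, 107471 bases away, and Dlg1, 204541 bases away. Apod, which encodes the lipid-binding apolipoprotein D, had 12, 11 and 15 counts in controls, against 33, 31 and 43 after treatment (log2 1.12 ± 0.28, edgeR adjusted p = 0.0181). Dlg1, a scaffold protein gene, differed by -0.03 ± 0.19 (edgeR adjusted p = 0.970). None of the tested neighbours of the other 3 genes was called: Rimoc1 beside Oxct1 at -0.11 ± 0.23, Npat and Cul5 beside Acat1 at 0.30 ± 0.38 and 0.02 ± 0.13, and Lrig2 beside Slc16a1 at 0.27 ± 0.35. Plcxd3 and Gm29560, on the remaining sides, had 3 counts and none.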

How the data were processed

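Per the labels' protocols, heart RNA was extracted with Trizol and sequenced from the 3′ end after preparation with the QuantSeq forward kit. The submitters' processing notes name bcl2fastq and GRCm39. Alignment, counting, annotation release, strandedness and molecular identifiers were not given in the sources used here. Per the file headers, the authors deposited a whole-number count for each gene and a scaled signal headed CPM, which is each count column times 1 constant per library and gave 1 set of alternative library sizes.

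The filter was filterByExpr of edgeR 4.0.16 (R 4.3.3), with a minimum count of 10 and a minimum total of 15. TMM factors ran from 0.857 to 1.15. Group was the single factor in glmQLFit and glmQLFTest, and the Benjamini-Hochberg threshold was 0.05. The SE was derived by dividing the size of the log2 change by √F. limma 3.58.1 (voom) and DESeq2 1.42.0 were alternatives, beside other scalings, filters, a replicate block and each library left out. Log2 CPM used a prior count of 2. The test was also run on counts simulated from its own fitted levels and spreads. Such a run checks the code and cannot show how well the model holds for these hearts. Within groups, libraries differed by more than sampling noise (chi-square per degree of freedom 2.10 to 3.42). Intervals and limits on counts of 0 cover counting error only, or the spread between 3 hearts where a fit gave them.

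The members, the 6 gene lists and the marker lists were chosen with earlier results of these data known, so their directions are not independent evidence. Named were the 4 members, list genes with a count and, added after their values were seen, some with none, the 3 genes most correlated with each member and the nearest neighbours; some list genes are not reported here. Within the RefSeq table no promoter of Acat1 was used here, and protein sequences were not used here.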

Additional observations from a re-analysis of the deposited data

How the results depend on the processing

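Bdh1 kept its direction and call under all 18 alternatives (log2 1.22 to 1.68, adjusted p from 8.30e-22 to 0.000146). With total counts alone, 1479 genes passed (1407 higher and 72 lower, against 291 and 229 with TMM), Oxct1 turned to 0.23 and Acat1 to 0.019, and Slc16a1 was called at 0.78. Calls then numbered 2 in the ketone pathway list, 1 in the transport list (Slc16a1), 1 in the receptor and deacetylase list (Sirt2) and 2 among the regulators. DESeq2 called 335 genes. Slc16a1 was also called with no count filter (0.49), a robust fit (0.48), the replicate block (0.48) and 2 scalings added after seeing the data, nuclear total counts (0.54; 349 genes higher and 154 lower) and cardiomyocyte marker counts (0.64; 555 and 117). Each of these gave 2 calls in the ketone pathway list and 1 in the transport list, and the marker counts turned Oxct1 to 0.073. The cause was not tested. The labels state no covariate, so the block, which called 560 genes, has no stated basis in the design. Deviations of same-numbered hearts correlated at r = 0.061, -0.028 and -0.014, which cannot exclude a shared batch. Without 1 library, 301 (without control 1) to 494 genes passed, with 1 to 2 calls in the ketone pathway list, 0 to 1 in the transport list and 2 to 3 among thiolases. The log2 change then ran from -0.39 to -0.22 for Acat1, from -0.12 to -0.03 for Oxct1 and from 0.33 to 0.62 for Slc16a1. All 6 ratios between members kept their sign under their 7 alternatives. Genes under the count filter cannot be judged at this depth.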
